A study of Mus musculus with 24 samples.

Results

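Vascular endothelial growth factors (VEGFs) act through receptor tyrosine kinases and neuropilin co-receptors, and the 9 genes of this system described here were the ligands Vegfa, Vegfb, Vegfc and Pgf, the receptors Kdr, Flt1 and Flt4, and the co-receptors Nrp1 and Nrp2. They were chosen by name for their roles, and all 9 were present among the 14912 genes of the table. RNA-seq had been performed on the left ventricle (LV) of male wild-type C57BL/6J mice whose hearts were flushed with saline. In the ANG II group, 12 samples came from mice infused for 7 days with angiotensin II at 1500 ng/kg/min from a mini-pump under the skin, a model of hypertensive left ventricular hypertrophy (LVH). In the control group, 12 samples came from mice that received saline by the same route. The age of the mice was not given, no sample carried a transgene, and the labels did not say whether each sample was 1 animal. The study describes its sequencing samples as biological replicates and counts more of them per group than the 12 analysed here. The p-values therefore measure the spread between these samples in the deposited values. Those values had been adjusted in sets, as described below. The limma fits did not model that step, so their p-values may be too small.

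In the heart, VEGF-A is made mainly by cardiomyocytes and reaches the endothelium of the neighbouring capillaries, where VEGFR2, the product of Kdr, carries most of its signal for growth, survival and permeability. VEGFR1, the product of Flt1, binds VEGF-A, VEGF-B and placental growth factor (Pgf) and, partly as a soluble form, keeps VEGF-A away from VEGFR2. VEGF-C signals through VEGFR3, the product of Flt4, which in the adult is best known from lymphatic vessels, and neuropilins hold VEGFs next to their receptors and also bind class 3 semaphorins.

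The 9 genes did not move in 1 direction. Vegfa, Pgf and Flt4 were higher in the ANG II group, by 15.1%, 29.4% and 30.6% of the control means, whereas the mean of Vegfb fell by 20.9% and that of Kdr fell by 14.4%. Vegfc, Flt1, Nrp1 and Nrp2 did not pass the test. Thus 3 of the 9 genes were called higher, against 20.9% of all 14026 genes tested, and 2 were called lower, against 12.6%, where 33.5% of all genes were called in either direction. With 9 genes, these counts do not set the family apart from the table. None of the 9 passed the stricter limit of the study, an absolute log2 fold change over 0.5, which 5.92% of all genes passed. No gene of the 9 separated the groups completely, against 0.756% of all genes. A call here means an adjusted p below 0.05 in limma on log2(FPKM + 1), two-sided, with Benjamini-Hochberg adjustment over all tested genes.

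FPKM is a fragment count divided by transcript length and by the size of the library, so levels of different genes can be compared per length. The values deposited as FPKM had been adjusted in 4 sets, a step that the sources used here do not describe. In each group, samples 1 to 3 formed the first set, samples 4 to 6 the next, then samples 7 to 9, and samples 10 to 12 the last. It left 0.766% of the values of the table negative but none of those of the 9 genes. The number of fragments per sample was not given, so no counting error could be set. Each call is therefore given with the difference within each set. Correlations between samples across genes ran from 0.939 to 0.996. Cardiomyocyte markers dominated the tissue in both groups, with the ventricular myosin light chain Myl2 at a mean of 13232 FPKM in the control group and 9452 FPKM in the ANG II group, and all 20 endothelial markers were above 0 in every sample.

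**Figure D1:**
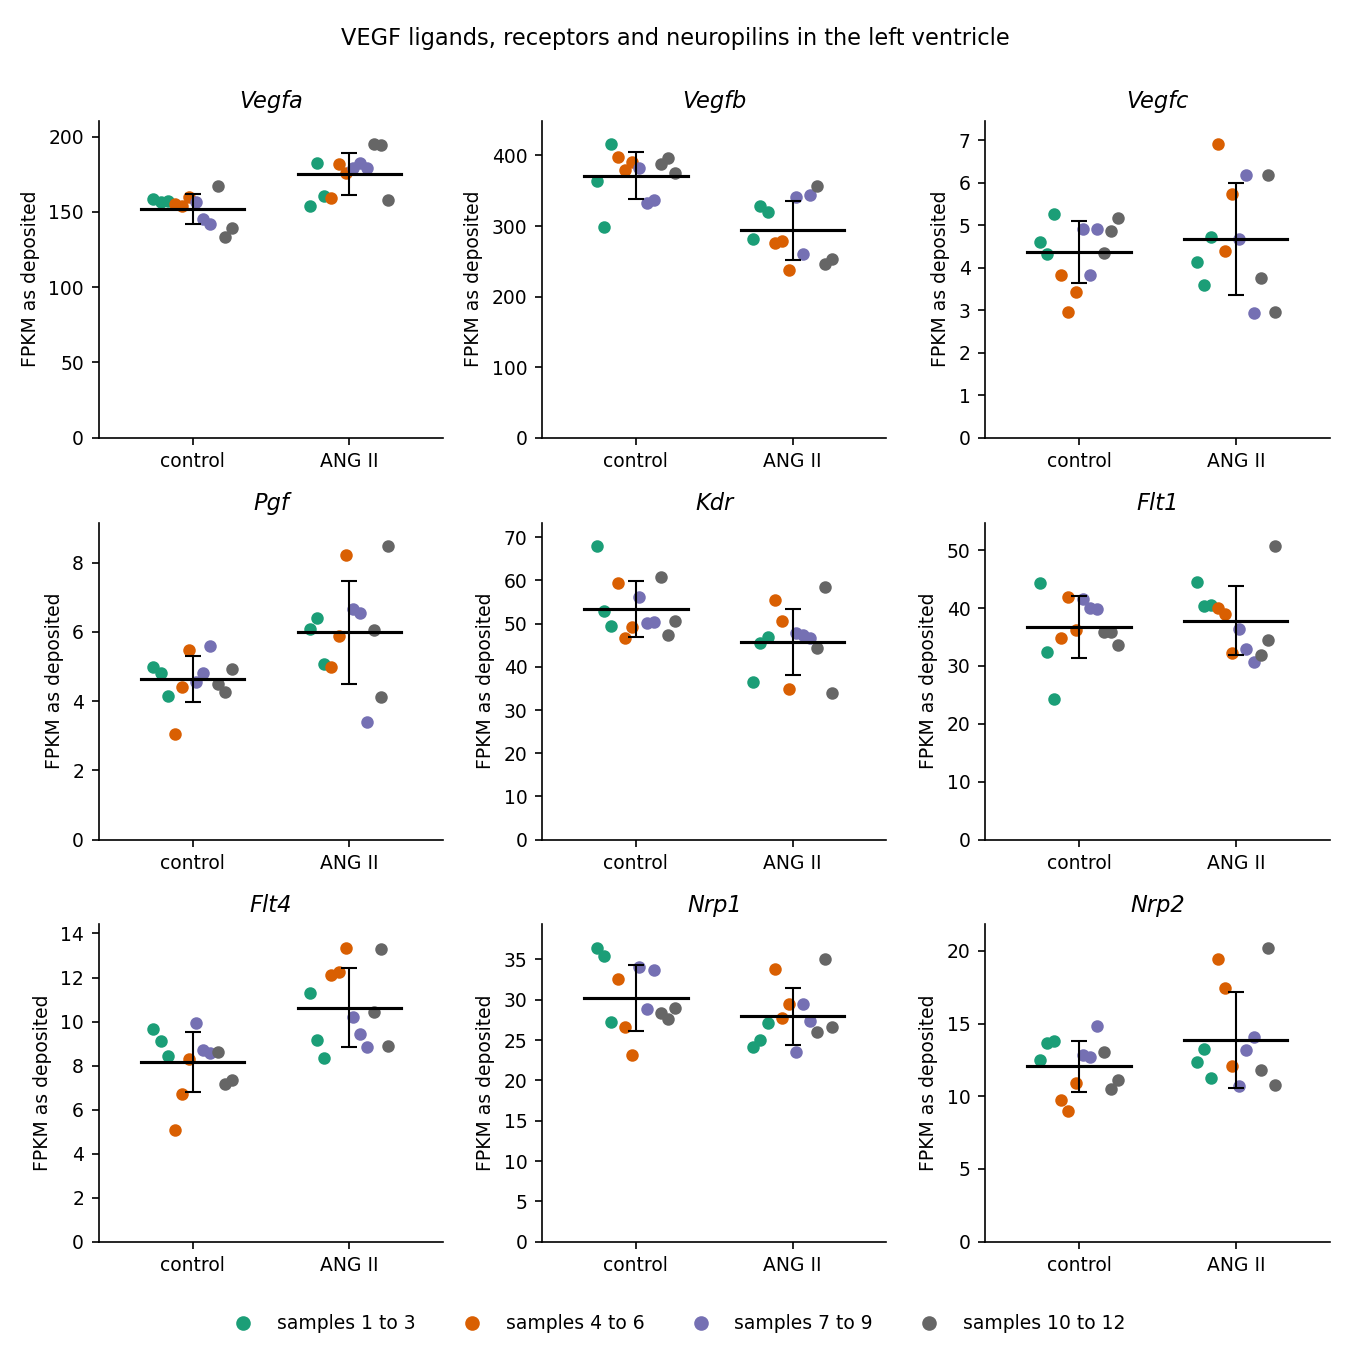
FPKM as deposited (vertical axes, from 0) of each of the 9 genes in the 12 control and 12 ANG II samples. Each point is a sample, coloured by its set, the long line is the mean and the whiskers are 1 SD; Vegfa, Pgf and Flt4 lie higher and Vegfb and Kdr lower in the ANG II group, with overlap in every gene.

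The 250 bases before the transcription start are shown for the most abundant ligands and for the main signalling receptor, 1 gene that rose and 2 that fell. They were taken from RefSeq on GRCm38.p6 and run 5′ to 3′ along the gene's own strand, the minus strand in each case. The windows are chr17:46032378-46032627 for Vegfa, chr19:6987652-6987901 for Vegfb and chr5:75978456-75978705 for Kdr. Capitals mark the GC box, written GGGCGG or, on the other strand, CCGCCC.
Vegfa: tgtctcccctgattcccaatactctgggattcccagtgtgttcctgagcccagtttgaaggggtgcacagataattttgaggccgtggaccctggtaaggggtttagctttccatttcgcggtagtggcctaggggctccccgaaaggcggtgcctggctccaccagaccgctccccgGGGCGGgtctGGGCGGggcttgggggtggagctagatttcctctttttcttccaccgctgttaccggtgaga
Vegfb: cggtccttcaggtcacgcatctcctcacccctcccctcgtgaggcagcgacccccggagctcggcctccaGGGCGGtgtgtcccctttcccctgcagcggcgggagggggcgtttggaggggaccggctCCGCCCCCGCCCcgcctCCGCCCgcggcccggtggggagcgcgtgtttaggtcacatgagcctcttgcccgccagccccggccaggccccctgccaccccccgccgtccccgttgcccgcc
Kdr: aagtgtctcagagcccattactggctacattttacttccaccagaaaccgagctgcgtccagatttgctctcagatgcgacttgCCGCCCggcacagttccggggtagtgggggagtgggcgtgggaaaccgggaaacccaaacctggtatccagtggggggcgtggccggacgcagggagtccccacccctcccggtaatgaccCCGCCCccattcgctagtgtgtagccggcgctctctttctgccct

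A GC box stood in the windows of all 9 genes, from 1 match in Nrp1 to 4 in Vegfb and 5 in Nrp2, and in 32.7% of the 32851 RefSeq windows of this length. The RefSeq starts used for Pgf, Flt4 and Nrp1 lie 477, 416 and 469 bases from the 5′ end of the GENCODE gene. The windows of these genes therefore fall inside the GENCODE gene. GC made up 59.2% of the Vegfa window, 61.6% of the Kdr window and 76.4% of the Vegfb window, against a median of 52.4% over all windows. The core letters of the hypoxia response element, ACGTG on either strand, were in none of the 9 windows and in 16.6% of all windows. The letters TATAAA were found for Flt1 alone, and in 12.4% of all windows. The matches describe these windows only, and they did not set the genes that rose apart from those that fell.

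Vegfa encodes the main angiogenic ligand and lies on the minus strand of chromosome 17 (chr17:46016993-46032369 in GENCODE vM21 on GRCm38, protein-coding). Its level in the control group ran from 133 to 167 FPKM with a median of 156 FPKM, and in the ANG II group from 154 to 195 FPKM with a median of 179 FPKM. The groups overlapped, but 11 of 12 ANG II samples lay above the control median and 8 above the highest control. The mean rose from 152 ± 9.86 to 175 ± 14.1 FPKM (SD, n = 12 each), a log2 fold change of 0.20 (SE 0.0451, 95% CI 0.11 to 0.29, limma adjusted p = 0.00162). Within the sets the log2 difference was 0.07, 0.14, 0.28 and 0.31, so it was positive in all 4 but smallest in samples 1 to 3.

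Vegfb, whose product binds VEGFR1 and is highly expressed in muscle rich in mitochondria, lies at chr19:6982473-6987651 on the minus strand. It was the most abundant of the 9, at 298 to 416 FPKM with a median of 381 FPKM in the control group and at 238 to 357 FPKM with a median of 281 FPKM in the ANG II group. Every ANG II sample lay below the control median and 7 lay below the lowest control. The mean fell from 371 ± 33.3 to 294 ± 41.8 FPKM (SD, n = 12 each), with a log2 fold change of -0.34 (SE 0.0695, 95% CI -0.49 to -0.20, limma adjusted p = 0.000613). The difference was negative in all 4 sets, at -0.20, -0.56, -0.16 and -0.45 on the log2 scale.

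Because Vegfa rose while Vegfb fell, their ratio moved further than either gene. The level of Vegfb was 1.90 to 2.97 times that of Vegfa in the control samples, with a median of 2.44. In the ANG II samples it was 1.27 to 1.99 times that of Vegfa, with a median of 1.77, and 10 of 12 lay below the lowest control ratio. The ratio is a description with no test, since the pair was chosen after the values were seen. It was taken on deposited values, which in the reconstruction given below were scaled separately for each gene and set. Ratios before that step were not computed. Vegfb nevertheless stayed above Vegfa in every sample of both groups.

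Pgf, a VEGFR1 ligand that is low in the resting adult heart (chr12:85166635-85177790, minus strand), ran from 3.06 to 5.59 FPKM with a median of 4.68 FPKM in the control group. In the ANG II group it ran from 3.38 to 8.48 FPKM with a median of 6.08 FPKM. Here 10 of 12 ANG II samples exceeded the control median and 8 the highest control, while the lowest ANG II samples lay within the control range. The mean rose from 4.63 ± 0.662 to 5.99 ± 1.48 FPKM (SD, n = 12 each), with a log2 fold change of 0.29 (SE 0.102, 95% CI 0.08 to 0.50, limma adjusted p = 0.0315). The sets gave 0.28, 0.47, 0.08 and 0.33. This call was close to the threshold and was lost without samples 4 to 6 (adjusted p = 0.152), and also on leaving out any 1 of ANG II samples 6, 8 and 12 and control sample 4 (adjusted p up to 0.0600).

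Vegfc, the lymphangiogenic ligand (chr8:54077606-54187096, plus strand), was the least abundant of the 9. It ran from 2.96 to 5.26 FPKM with a median of 4.47 FPKM in the control group and from 2.93 to 6.92 FPKM with a median of 4.54 FPKM in the ANG II group. The groups covered nearly the same range, and the log2 fold change was 0.06 (95% CI -0.17 to 0.28, limma adjusted p = 0.702). Samples 4 to 6 differed from the other sets, with a log2 difference of 0.59 where the others gave -0.16, -0.03 and -0.17. Without them the value turned to -0.12 (adjusted p = 0.475).

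Among the receptors, Kdr (chr5:75932827-75978458, minus strand) was the most abundant. It ran from 46.6 to 68.0 FPKM with a median of 50.4 FPKM in the control group and from 33.9 to 58.4 FPKM with a median of 46.9 FPKM in the ANG II group. Of the 12 ANG II samples, 9 lay below the control median and 5 below the lowest control, and the rest were within the control range. The mean fell from 53.4 ± 6.42 to 45.7 ± 7.59 FPKM (SD, n = 12 each), with a log2 fold change of -0.23 (SE 0.0807, 95% CI -0.40 to -0.06, limma adjusted p = 0.0309). The difference was negative in all 4 sets, at -0.39, -0.16, -0.14 and -0.24. The call was near the threshold and was lost without samples 1 to 3 (adjusted p = 0.156), 7 to 9 (0.0690) or 10 to 12 (0.0556). It was also lost in limma with same-numbered samples fitted as blocks (adjusted p = 0.0717). Leaving out any 1 of ANG II samples 1, 6 and 12 and control samples 1, 4 and 10 gave adjusted p up to 0.0591.

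Flt1 (chr5:147561604-147726011, minus strand) ran from 24.3 to 44.3 FPKM with a median of 36.1 FPKM in the control group and from 30.7 to 50.7 FPKM with a median of 37.7 FPKM in the ANG II group. The distributions lay over each other, and the log2 fold change was 0.04 (95% CI -0.13 to 0.22, limma adjusted p = 0.725). Its sign differed between the sets, from 0.34 in samples 1 to 3 to -0.27 in samples 7 to 9. The soluble and the membrane form of VEGFR1 cannot be told apart in a table with 1 value per gene.

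Flt4 (chr11:49609263-49652739, plus strand) showed the largest log2 difference of the 9 in size, closely followed by Vegfb. It ran from 5.06 to 9.94 FPKM with a median of 8.49 FPKM in the control group and from 8.33 to 13.3 FPKM with a median of 10.3 FPKM in the ANG II group. Of the 12 ANG II samples, 11 exceeded the control median and 7 the highest control. The mean rose from 8.14 ± 1.37 to 10.6 ± 1.78 FPKM (SD, n = 12 each), with a log2 fold change of 0.35 (SE 0.0900, 95% CI 0.16 to 0.53, limma adjusted p = 0.00469).

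That increase was unequal between the sets. In samples 4 to 6 the mean was 6.70 FPKM in the control group and 12.6 FPKM in the ANG II group, a log2 difference of 0.84, and in samples 10 to 12 the difference was 0.43. In samples 1 to 3 and 7 to 9 it was 0.06 each. Flt4 was the one gene of the 9 whose group difference varied between the sets by limma's interaction test (adjusted p = 0.0437), against 7.49% of all genes. Without samples 4 to 6 the log2 fold change was 0.19 and no longer passed (adjusted p = 0.104), with 1 gene called higher, Vegfa, and 2 called lower, Vegfb and Kdr, of the 9.

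**Figure D2:**
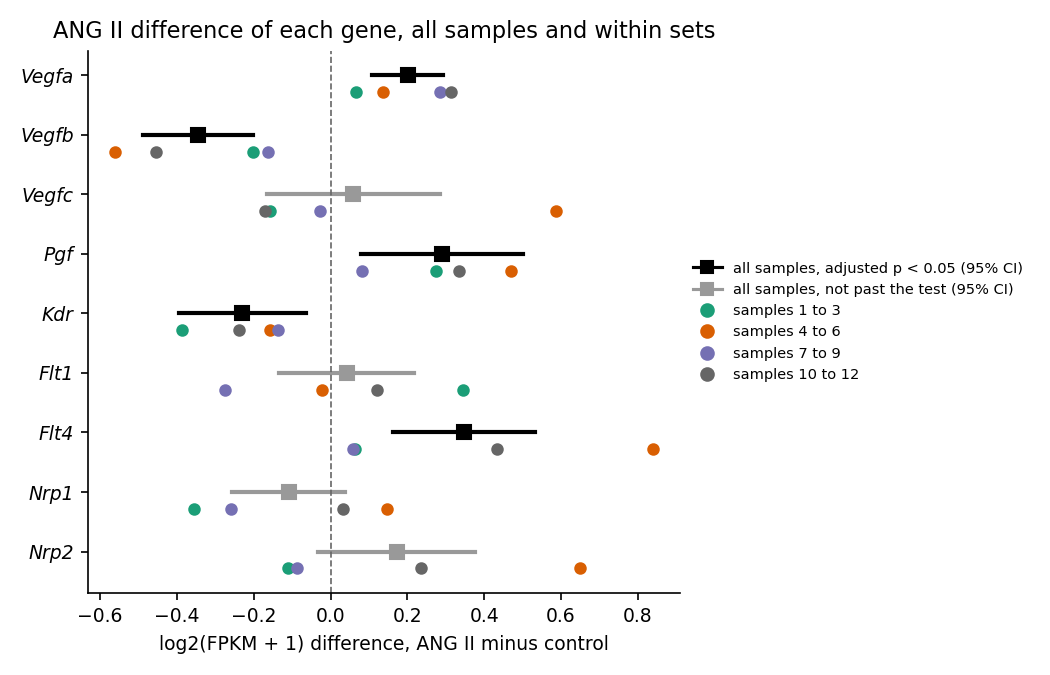
Difference in log2(FPKM + 1), ANG II minus control (horizontal axis), of the 9 genes. Squares with bars are the fit over all 24 samples with its 95% CI, black where the adjusted p was below 0.05 and grey otherwise, and the coloured points are the differences within each set; the orange point of samples 4 to 6 is farthest to the right for Vegfc, Pgf, Flt4, Nrp1 and Nrp2.

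Nrp1, which binds VEGF-A and enhances VEGFR2 signalling (chr8:128358604-128503363, plus strand), ran from 23.2 to 36.4 FPKM with a median of 28.9 FPKM in the control group. In the ANG II group it ran from 23.5 to 35.1 FPKM with a median of 27.2 FPKM. The ranges were almost the same, and the log2 fold change was -0.11 (95% CI -0.26 to 0.04, limma adjusted p = 0.244). The sets split in sign, at -0.36, 0.15, -0.26 and 0.03.

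Nrp2, a co-receptor of lymphatic endothelium and veins that also binds VEGF-C (chr1:62703285-62818695, plus strand), ran from 8.95 to 14.8 FPKM with a median of 12.6 FPKM in the control group. In the ANG II group it ran from 10.7 to 20.2 FPKM with a median of 12.7 FPKM. The medians were close while the upper ANG II samples reached beyond the controls, and the log2 fold change of 0.17 did not pass the test (95% CI -0.03 to 0.38, limma adjusted p = 0.184). Samples 4 to 6 gave 0.65, against -0.11, -0.09 and 0.24 in the other sets, and without them the value was 0.01. Annotated transcripts of Gm29083 and Gm37121 overlap Nrp2 without sharing exons, and the microRNA gene Mir1903 overlaps an exon of Nrp1 on the same strand, where reads of the 2 genes cannot be told apart.

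The order of the levels per length was the same in both groups, with Vegfb highest, followed by Vegfa, Kdr, Flt1, Nrp1, Nrp2, Flt4, Pgf and Vegfc. Most neighbours in this order were separated in nearly every sample. The exceptions in the control group were Flt1 above Nrp1 in 10 of 12 samples and Pgf above Vegfc in 7 of 12, so the last pair did not differ beyond the spread. In the ANG II group Kdr exceeded Flt1 in 10 of 12 samples and Pgf exceeded Vegfc in 10 of 12.

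Among the receptors, the balance of Kdr to Flt4 changed most. Kdr was 5.64 to 11.8 times Flt4 in the control samples, with a median of 6.27, and 2.61 to 5.64 times Flt4 in the ANG II samples, with a median of 4.49. Each ANG II ratio was below the lowest control ratio, by a very small margin at the boundary. Kdr against Flt1 shifted less, from a median of 1.43 to 1.31, with 3 of 12 ANG II ratios below the control range. Nrp1 against Nrp2 went from a median of 2.60 to 2.08, and 6 of 12 ANG II ratios lay below the control range. These pairs, too, were chosen after the values were seen, and the ratios are descriptions. They also rest on deposited values, so they depend on the adjustment in sets. The share of other gene pairs whose ratios separate the groups was not computed.

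A reconstruction of the values before the adjustment in sets assumed that they were multiples of 0.01 FPKM. It also assumed, for each gene, a linear shift and scaling within each set. The group difference set aside was taken as the same in all 4 sets, and scales were sought in a limited range. Under these assumptions, the spacing of the deposited values gave a single solution for each of the 9 genes, with the scale of each set and that group difference. In that reconstruction the adjustment used the groups, which permuting labels on the deposited values would not account for. This alternative was added after the data were seen. Before the adjustment, Vegfa was higher by 14.7 FPKM in ANG II samples as a mean over the 4 sets, against 23.02 FPKM as deposited, so its size depended on the adjustment. The exact permutation test, two-sided over the 160000 exchanges of labels within sets, gave p = 0.00175 before and p = 0.000675 as deposited. Vegfa was higher in all 4 sets before the adjustment, and 11 of 12 ANG II samples lay above the control mean of their own set.

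For the other called genes the difference was of similar size before the adjustment. Vegfb was lower by 78.7 FPKM (exact permutation p = 0.000938), with 0 of 12 ANG II samples above the control mean of their set. Kdr was lower by 8.31 FPKM (exact permutation p = 0.0345), with 2 of 12 above. Pgf was higher by 1.46 FPKM (exact permutation p = 0.0144) and Flt4 by 2.90 FPKM (exact permutation p = 0.00201), each with 10 of 12 above. All were in 1 direction in the 4 sets but for Flt4, which differed by -0.04 FPKM in samples 1 to 3 and by 7.35 FPKM in samples 4 to 6. For Vegfc, Flt1, Nrp1 and Nrp2 the exact permutation p was 0.514, 0.361, 0.175 and 0.136.

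**Figure D3:**
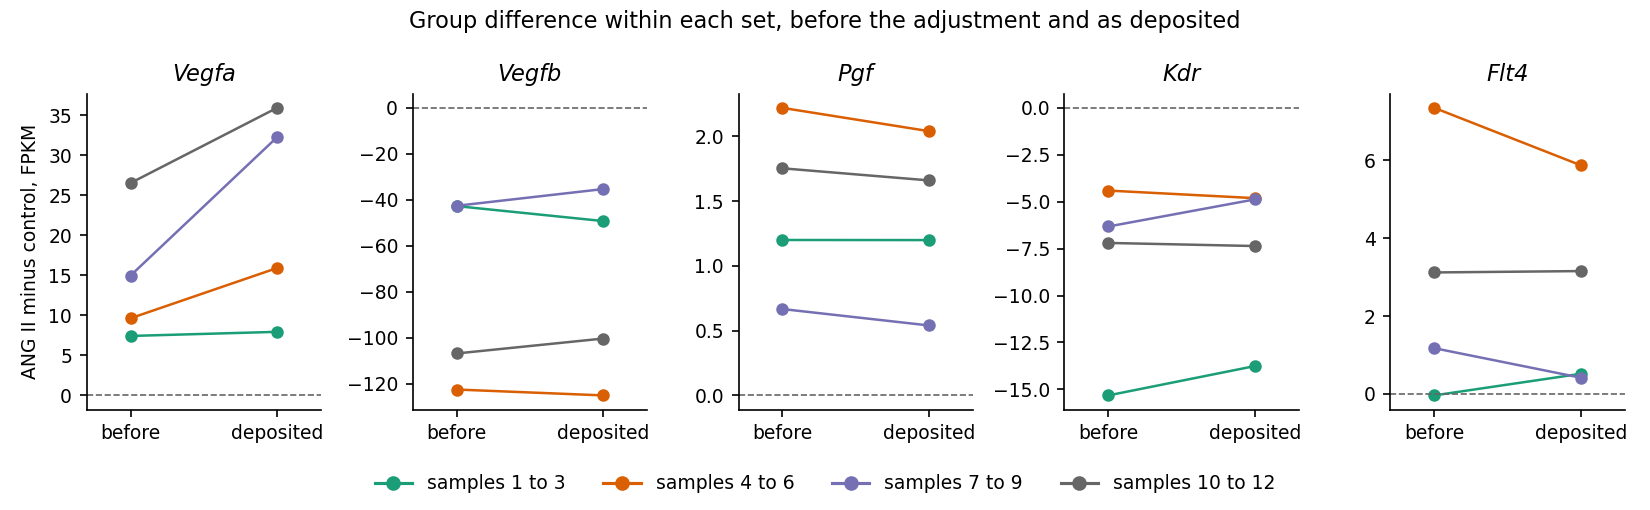
Difference in mean FPKM, ANG II minus control (vertical axes, each with its own scale), within each set for the 5 genes that passed the test, before the adjustment in sets and as deposited. Each coloured line is a set of 3 samples per group and the dashed line is 0; the Vegfa differences grow from 7.43 to 26.6 FPKM before to 7.94 to 35.9 FPKM as deposited, and Flt4 starts at -0.04 FPKM in samples 1 to 3.

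Since Kdr, Flt1 and Flt4 are transcribed mostly in endothelial cells, their levels were also set against 20 endothelial markers in the same sample. In bulk tissue, fewer cells of a type and less RNA per cell cannot be told apart. Of the 20 markers, 5 rose, 1 fell and 14 did not pass, with a median log2 fold change of 0.04, against 0.05 over all genes. Pecam1, a junction protein, rose from 93.3 to 121 FPKM, while Cdh5, the endothelial cadherin, was at 107 and 108 FPKM and Tek, the angiopoietin receptor, at 17.4 and 17.3 FPKM. Ecscr rose from 16.4 to 23.5 FPKM (0.47, limma adjusted p = 0.00240), and Ushbp1 fell from 24.5 to 21.2 FPKM (-0.21, adjusted p = 0.0447). The summed level of the 20 markers ran from 677 to 863 FPKM in the control group and from 673 to 1025 FPKM in the ANG II group.

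Relative to the mean log2 level of these markers, Kdr was lower, with a log2 difference of -0.32 (SE 0.0786, 95% CI -0.48 to -0.15, limma adjusted p = 0.00388). Vegfb was lower at -0.43 (limma adjusted p = 0.00246) and Nrp1 at -0.19 (adjusted p = 0.0425), where 17.3% of all genes were called lower. Flt4 was higher at 0.26 (SE 0.0692, 95% CI 0.12 to 0.41, limma adjusted p = 0.00582), where 9.49% of all genes were called higher. On this scale Vegfa gave 0.12, Pgf 0.21 and Flt1 -0.04, none of which passed (adjusted p = 0.231, 0.208 and 0.809). The Nrp1 call was lost in 13 of the 24 fits that left out 1 sample, with adjusted p up to 0.0825. Without samples 4 to 6, Kdr was the 1 gene of the 9 still called, at -0.27 (adjusted p = 0.0369).

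Flt4 also rose beside the lymphatic endothelial markers. Of 8 such genes, 5 rose and 0 fell, with a median log2 fold change of 0.29. Over all genes tested, 20.9% were called higher and 12.6% lower, with a median of 0.05. Pdpn, which encodes podoplanin, went from 4.05 to 7.22 FPKM (log2 fold change 0.72, limma adjusted p = 0.00961), and Mmrn1 from 1.86 to 3.48 FPKM (0.62, adjusted p = 0.00137). The summed level of the 8 genes ran from 69.5 to 119 FPKM in the control group and from 89.3 to 181 FPKM in the ANG II group, with none at 0. Prox1, also on the list, went from 14.0 to 11.8 FPKM and did not pass (log2 fold change -0.21, limma adjusted p = 0.139). Without samples 4 to 6, 2 of the 8 still passed, and the median was 0.14. The part of these markers in the Flt4 result was not tested.

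Of 53 genes that relay the signal of VEGF receptors inside the cell, 13 rose, 4 fell and 36 did not pass, with a median log2 fold change of 0.10. These shares were near the 20.9% and 12.6% of all genes called higher and lower, so the counts say nothing particular about the list. Rac2, a small GTPase of blood cells, rose from 3.92 to 6.50 FPKM (0.58, limma adjusted p = 0.00606), and Sphk1, which makes sphingosine 1-phosphate, rose from 2.38 to 3.72 FPKM (0.57, adjusted p = 0.0324). The kinase gene Akt2 fell from 107 to 84.4 FPKM (-0.34, adjusted p = 5.02e-07), and the docking protein gene Gab1 fell from 19.6 to 16.3 FPKM (-0.26, adjusted p = 0.0148). Without samples 4 to 6, 7 rose and 6 fell, and over all genes the counts went from 2928 higher and 1769 lower to 1177 and 1633.

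Of 15 partners of the neuropilins that were tested, chiefly semaphorins and plexins, 3 rose and 0 fell, beside 20.9% and 12.6% of all genes tested. Sema3f, a repulsive semaphorin that binds Nrp2, rose from 14.1 to 21.9 FPKM (0.62, limma adjusted p = 0.000700), and Cspg4, a pericyte proteoglycan, rose from 5.62 to 7.36 FPKM (0.34, adjusted p = 0.0206). Cspg4 is also on the list of smooth muscle and pericyte markers given below, of which 3 rose and 3 fell. Of 18 regulators of VEGF receptors, 4 rose and 0 fell. Itgb3, the beta 3 integrin that pairs with VEGFR2, rose from 0.845 to 2.61 FPKM (0.97, adjusted p = 3.94e-06), and Ptprj, a phosphatase of VEGFR2, rose from 2.41 to 3.39 FPKM (0.36, adjusted p = 0.00263). The median log2 fold change was 0.09 for the former list and 0.13 for the latter. The partners without samples 4 to 6 gave 1 higher and 0 lower with a median of 0.03, and the regulators gave 2 higher and 1 lower with a median of 0.05. Both lists held a share of genes called higher close to that of the whole table.

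Upstream of Vegfa, 17 genes of oxygen sensing and Vegfa regulation were listed, of which 2 rose and 5 fell. Their median log2 fold change was 0.05, and over all genes tested 20.9% were called higher and 12.6% lower. Hif1a, the oxygen-regulated subunit of the hypoxia-inducible factor, rose from 19.0 to 25.6 FPKM (0.39, limma adjusted p = 0.00114), and its partner Arnt from 17.5 to 19.3 FPKM (0.13, adjusted p = 0.0355). The prolyl hydroxylase genes Egln1 and Egln3, whose products mark that subunit for degradation, fell from 174 to 131 FPKM (-0.41, adjusted p = 8.84e-07) and from 50.7 to 38.1 FPKM (-0.45, adjusted p = 0.0207). Epas1, also on this list, fell from 121 to 105 FPKM (-0.20, limma adjusted p = 0.00475). Of 20 hypoxia targets other than Vegfa, 7 rose and 2 fell, with a median log2 fold change of 0.13. Ddit4, an inhibitor of mTORC1, rose from 34.97 to 60.3 FPKM (0.76, adjusted p = 0.000907), the glucose transporter gene Slc2a1 rose from 9.88 to 13.8 FPKM (0.43, adjusted p = 0.00194), and Higd1a and Hk2 fell (-0.27 and -0.16, adjusted p = 0.000518 and 0.0183). Without samples 4 to 6 these lists gave 2 higher and 2 lower, and 4 higher and 1 lower.

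Of 17 genes known to be induced by VEGF in endothelium, 7 rose and 0 fell, with a median log2 fold change of 0.26. Over all genes tested, 20.9% were called higher and 12.6% lower, with a median of 0.05. Nid2, a basement membrane protein, rose from 7.39 to 11.4 FPKM (0.56, limma adjusted p = 0.00690), and the transcription factor gene Egr2 rose from 0.750 to 1.39 FPKM (0.47, adjusted p = 0.0175). Egr1, Apln, Dll4 and Dusp5 of this list had values below 0 without a call (-0.30, -0.26, -0.19 and -0.13). Without samples 4 to 6, 4 rose and 1 fell, and the median was 0.14. Of all lists of the pathway, this one had the highest median.

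**Figure D4:**
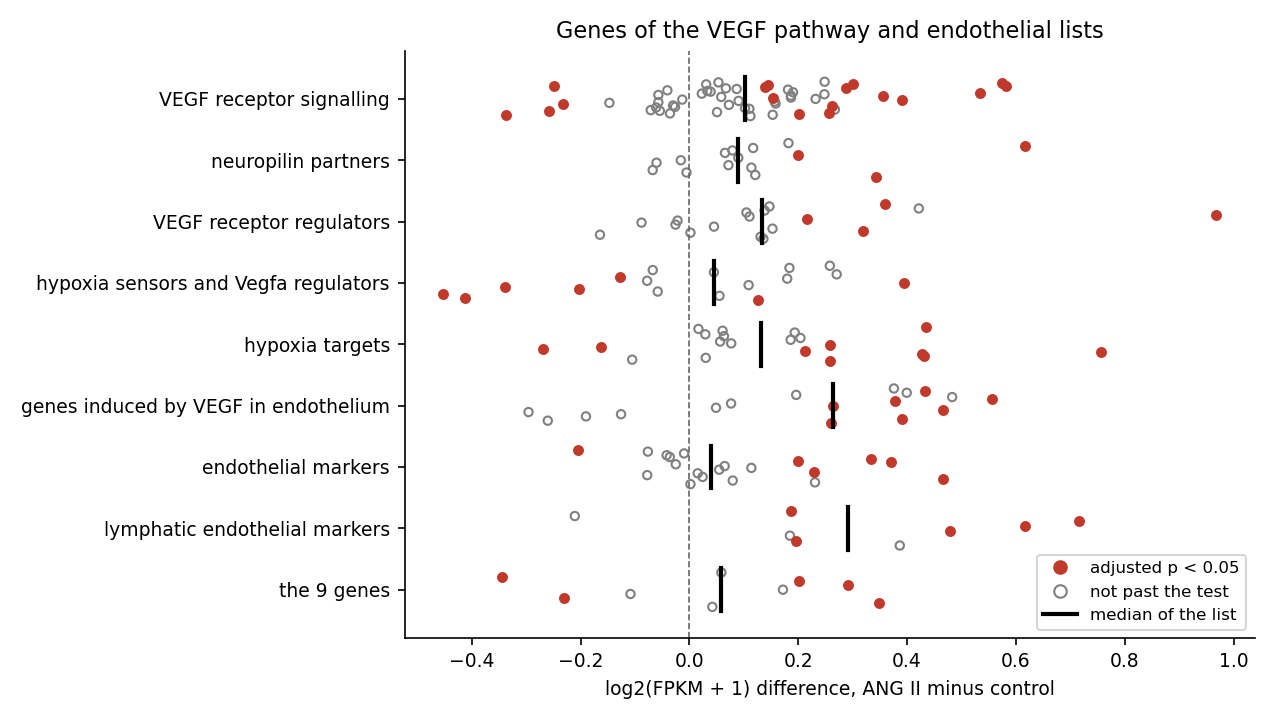
Difference in log2(FPKM + 1), ANG II minus control (horizontal axis), of the genes of each list (rows). Filled red points passed the limma test at an adjusted p below 0.05, open grey points did not, and the black bar is the median of the list; the medians lie between 0.04 for endothelial markers and 0.29 for lymphatic markers.

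Markers of other cells moved between the groups as well, where 20.9% of all genes tested were called higher and 12.6% lower. Of 13 cardiomyocyte markers 0 rose and 6 fell, at a median log2 fold change of -0.30, with Tnni3 (-0.63) and Myl2 (-0.50) lowest. The summed level of the 13 ran from 52288 to 66319 FPKM in the control group and from 40346 to 57491 FPKM in the ANG II group. Of 12 macrophage markers 11 rose, at a median log2 fold change of 0.63, with Cd68 (0.92) and Itgam (0.84) highest. Their sums were 277 to 622 FPKM and 362 to 1095 FPKM, and without samples 4 to 6 only 2 rose. Of 11 fibroblast markers 5 rose and 1 fell, and Col1a1, Col1a2 and Col3a1 were at or below 0 in at least 1 sample, as were Tagln and Cnn1 among 11 smooth muscle and pericyte markers, of which 3 rose and 3 fell. Of 6 red blood cell markers 5 rose, at a median of 1.70, with Hba-a2 (3.39) and Hba-a1 (2.03) highest. Their sums were 92.3 to 2949 FPKM and 779 to 6445 FPKM. Hba-a2 and all 3 atrial markers were at or below 0 in at least 1 sample. The part of all these markers in the levels of the 9 genes was not tested.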

How the data were processed

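LV RNA was enriched for mRNA with oligo(dT) and sequenced. The processing tools named in the labels were Bowtie2, HISAT and RSEM; versions, genome build and strand setting are not given in the sources used here. The deposited values are given by the authors as FPKM, but they had been adjusted in 4 sets of samples with negative values remaining, so they were treated as a score on the FPKM scale, and no count test was possible. Groups followed the sample labels. Negative values were set to 0, and log2(value + 1) was compared in all 24 samples with limma 3.58.1 (R 4.3.3; trended empirical Bayes, two-sided), as the study names limma, with Benjamini-Hochberg adjustment over the 14026 genes with a mean of at least 0.1; a call is an adjusted p below 0.05. Fold changes on this scale understate the change of low genes. Further tests took the interaction of group and set, and each gene minus the mean of 20 endothelial markers. Exact permutation tests within sets used Python 3.11.15 and numpy 2.4.6. Scripts were tested on simulated data. Gene positions are from GENCODE vM21 on GRCm38, and promoter windows from RefSeq on GRCm38.p6. The members, lists and tests were chosen with earlier results of these data known. Named genes were the 9 members, the 2 largest increases and 2 largest decreases with a call in each list, Pecam1, Cdh5 and Tek, and the 3 genes most like each of Vegfa, Kdr and Pgf. Prox1, Epas1, Egr1, Apln, Dll4, Dusp5 and Abcc9 were added to show list members with lower values. Col1a2 and the atrial markers were mentioned only for values at or below 0. Figf (Vegfd) was not analysed here. Of 12 same-numbered pairs, 0 had a correlation of deviations over 0.1, but on values adjusted in sets this could not exclude a pairing. The main fits treated the samples as unpaired.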

Additional observations from a re-analysis of the deposited data

Results flagged for a closer look

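The ANG II difference of Flt4, the gene of the lymphatic receptor VEGFR3, differed between the 4 sets of samples by limma's interaction test (F = 6.56, adjusted p = 0.0437261). The log2 difference was 0.84 in samples 4 to 6 and 0.43 in samples 10 to 12, but it was 0.06 in each of the other sets, samples 1 to 3 and 7 to 9. Before the adjustment in sets the differences were 7.35, 3.12, -0.04 and 1.17 FPKM in the same order. The call held with a pseudocount of 0.1 (adjusted p = 0.0389) and was lost after quantile normalization (0.209) and without samples 4 to 6 (0.831). What sets these samples apart is not given in the labels, and the set cannot be told apart from anything that was shared by its samples. For the other 8 genes the interaction gave adjusted p between 0.132 for Nrp2 and 0.827 for Kdr.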

How the results depend on the processing

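In the plain group comparison, Vegfa and Vegfb kept their direction and call in every limma or rank setting run, with log2 fold changes from 0.15 to 0.25 and from -0.41 to -0.27. The count of genes called lower went from 2 to 1 with the replicate block, without samples 1 to 3, without samples 7 to 9 and without samples 10 to 12, where Kdr was lost (adjusted p = 0.0717, 0.156, 0.0690 and 0.0556), and ranged from 1 to 2 when single samples were left out; it was 3 after median-ratio scaling, where Nrp1 passed at -0.16 (adjusted p = 0.0475). The count called higher went from 3 to 1 without samples 4 to 6, as Pgf and Flt4 were lost, and ranged from 2 to 3 when single samples were left out. Pgf was also lost after median-ratio scaling (0.0561), quantile normalization (0.120), with the set as a term (0.0510), and without samples 1 to 3 (0.0970) or 10 to 12 (0.0885). The count for the interaction went from 1 to 0 after quantile normalization and without samples 4 to 6, and the count relative to endothelial markers went from 4 to 1 without samples 4 to 6 and ranged from 3 to 4 when single samples were left out. Signs turned for genes without a call: Flt1 was -0.00512 after median-ratio scaling, -0.0586 without samples 1 to 3 and -0.00904 without control sample 3 (0.0676 at the highest with 1 sample left out), and Vegfc was -0.0356 after quantile normalization and -0.12 without samples 4 to 6. The causes were not tested. Correlations of deviations between same-numbered samples ran from -0.557 to -0.001, which on values adjusted in sets could not exclude a pairing. The replicate block took the calls over all genes from 2928 higher and 1769 lower to 1586 and 1238. Median-ratio scaling gave 2410 and 2230, quantile normalization 1922 and 2930, and leaving out samples 4 to 6 1177 and 1633, while the median over the genes tested went from a log2 fold change of 0.05 to 0.02, -0.02 and 0.01. The depth of the samples is unknown, so counting error could not be set against any of these differences.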

Other observations

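Over the 24 samples, after the mean of each group in each set was removed, the genes with levels most like those of each of 3 members were found among 11457 genes with a mean of at least 1 FPKM. For Kdr these were Myo10 (Pearson r = 0.891, Spearman rho = 0.890), Itpkb (0.875 and 0.834) and Cep85 (0.803 and 0.783). For Pgf they were Il4ra (0.859 and 0.807), Por (0.853 and 0.784) and Eva1c (0.834 and 0.799), and for Vegfa they were Jmjd8 (0.720 and 0.687), Slc11a2 (0.704 and 0.5) and Fam104a (0.696 and 0.661). All genes were measured in the same libraries and share the adjustment in sets, and the values are the highest of many, so they are a description with no test.

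Among the members, Kdr varied with Nrp2 (r = 0.651), Nrp1 (r = 0.589) and Vegfa (r = 0.482) over the same 24 samples. Pgf varied against Kdr (r = -0.585), Nrp2 (r = -0.576) and Nrp1 (r = -0.465), so that samples high in Pgf within their set and group tended to be low in these receptors. These, too, are descriptions over samples that share the adjustment.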
